A study of Mus musculus with 6 samples.

Results

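Collagen genes are the subject here: every feature whose symbol is Col, a chain-type number, the letter a and a chain number. This rule read names alone and no measured value, and it found 44 of the 31054 features in the deposited matrices. By the structures their chains build, 11 are fibril-forming, 6 form the basement membrane network (type IV), 6 form beaded filaments (type VI) and 9 are fibril-associated. Another 4 are transmembrane, 3 form short-chain networks, 2 are multiplexins, 1 forms anchoring fibrils and 2 belong to none of these. All 44 had a position in the GENCODE M21 annotation of the mouse genome build GRCm38.

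The study measured single cells of lungs from male C57BL/6 mice aged 21 months with a droplet assay that counts the 3′ ends of RNA molecules by unique molecular identifier (UMI). For the 3 libraries labelled p16-DTR the genotype was p16-CreERT2/R26-LSL-DTR, in which a tamoxifen-dependent Cre recombinase under the promoter of p16 opens a diphtheria toxin receptor. The 3 control libraries came from mice with p16-CreERT2 alone. Both groups received tamoxifen for 5 days and, after 2 weeks, diphtheria toxin for 5 days, followed by 2 weeks of recovery. Sorting gave each library 20000 CD45-negative and 9000 CD45-positive cells from Liberase digests, so the share of immune cells was set by the sort. The toxin is meant to kill cells in which the p16 promoter was active under tamoxifen, whatever their type. The titles number the samples 1 to 3 in each group and do not state that each came from a different animal, so p-values measure the spread between these libraries.

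Collagens are triple helices of 3 polypeptide chains, alike or different, and each kind of chain has its own gene. Fibril-forming types such as I and III give tissue its tensile strength, type IV makes the sheet of the basement membrane under epithelium and endothelium, and type VI forms microfilaments around cells. In the alveolus, epithelial and capillary basement membranes are fused over much of the gas-exchange surface, and the type IV network there contains both the common chains and the chains encoded by Col4a3, Col4a4 and Col4a5. Collagen turnover in the lung is best known from fibrosis, in which fibroblasts deposit fibrillar collagen.

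Levels are given as CPM, the UMIs of a gene per 1000000 UMIs of the class in a library. Each UMI marks 1 captured 3′ end, so they were not divided by gene length. The libraries held 254200305 to 344421685 UMIs in 13482 to 17332 barcodes, and 91156 cells were retained. Cdkn2a, the gene that encodes p16, went against the label: it had 7.10, 8.57 and 7.31 CPM in libraries with the p16-DTR label and 1.15, 2.60 and 2.84 in controls. The tdTomato entry separated the groups as labelled, with 89, 74 and 94 UMIs in libraries with the p16-DTR label and 0 in all 3 controls. Neither the titles nor the genotypes given above name tdTomato. Directions below therefore hold for the libraries as labelled. Cells were assigned to 25 classes by marker gates that contain no collagen gene, and 37230 cells that met no gate cleanly were left out of the classes. The order of classes by level, and each next class named, is over the 22 classes with at least 100 cells, which leaves out mesothelial, secretory and plasma cells. Control replicate 1 stood apart in its mixture, with 29.4% of retained cells gated as alveolar fibroblasts against at most 19.8% in the other 5 libraries. Pairs of libraries shared 59 to 94 cell barcodes. 

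Summed over the 44 genes, collagen made up 11501 CPM in adventitial fibroblasts, the fibroblasts around airways and vessels (mean of 6 libraries). Alveolar type 1 cells, the flat epithelium of gas exchange, came next with 8150. They were followed by pericytes with 5879, alveolar fibroblasts with 5056, smooth muscle cells with 4831 and peribronchial fibroblasts with 4035. In every library the adventitial sum, at least 9645, lay above that of alveolar type 1 cells, at most 8524. The ranges of pericytes, alveolar fibroblasts and smooth muscle cells overlapped. Endothelial classes held 816 to 1426 and alveolar type 2 cells, which make surfactant, 981. T cells had 39.5 and B cells 46.6, which serves as a background level here. In 6 immune classes (T, B and natural killer cells, neutrophils, classical and nonclassical monocytes), 42 of the 44 genes had a mean below 10. The exceptions were Col4a1 and Col4a2 in nonclassical monocytes, at 11.8 and 12.8. Other immune classes went higher, with Col14a1 at 396 in interstitial macrophages, Col27a1 at 34.2 in dendritic cells and Col4a1 at 22.4 in alveolar macrophages.

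**Figure D1:**
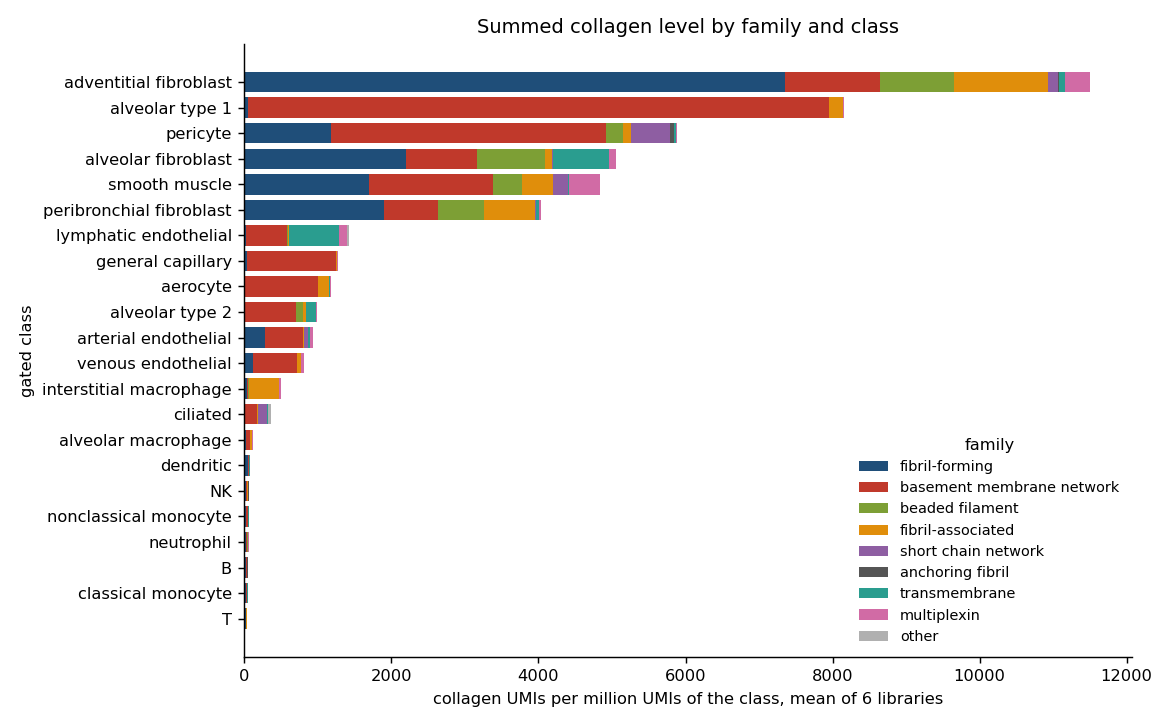
Summed collagen level in each of the 22 gated classes with at least 100 cells (horizontal bars, CPM, mean of 6 libraries), split by collagen family. Adventitial fibroblasts reach 11501, mostly fibril-forming genes; alveolar type 1 cells reach 8150, of which 7904 is type IV.

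The family that made up the sum differed by class. Fibril-forming genes accounted for 7351.5 of the adventitial sum and 2201 of that of alveolar fibroblasts. Type IV genes accounted for 7904 of the sum in alveolar type 1 cells, 3752 in pericytes and 1202 in general capillary cells, the capillary endothelial cells with stem-like functions. Over all retained cells, 23 of the 44 genes exceeded 10 CPM, 10 lay between 1 and 10, and 11 were below 1, among them Col2a1, Col10a1 and Col11a1, which are known from cartilage. For 19 genes the lowest library of the class with the highest mean lay above the highest library of the next class.

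**Figure D2:**
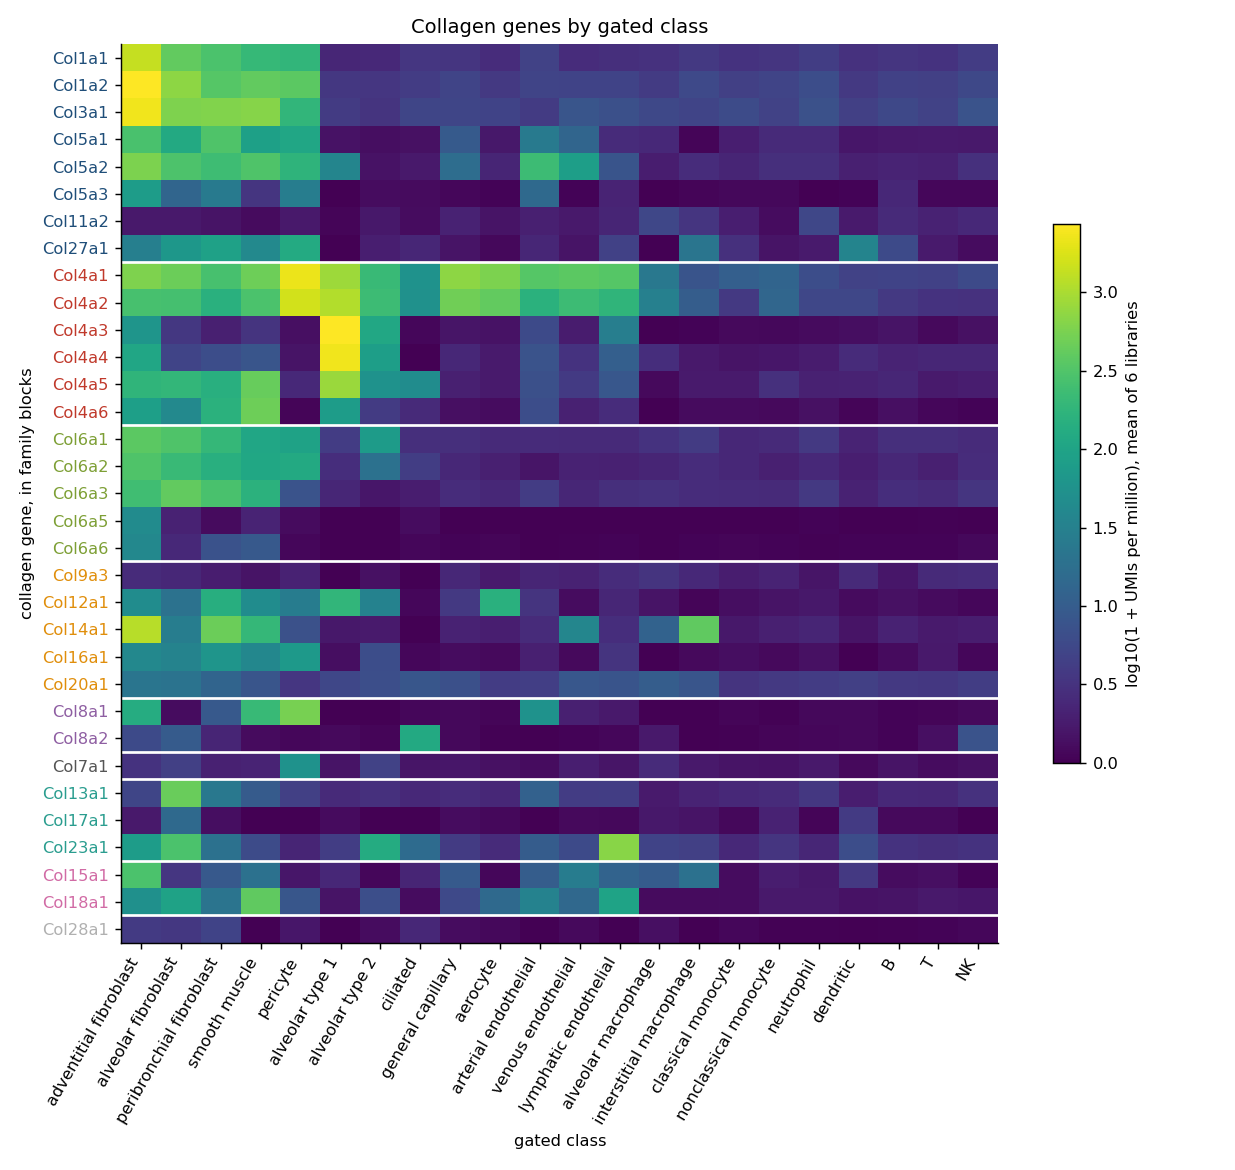
Level of the 33 collagen genes at or above 1 CPM over all retained cells (rows, in family blocks) in 22 gated classes (columns), as log10(1 + CPM), mean of 6 libraries. Most fibril-forming genes are brightest in the 5 mesenchymal classes, with Col11a2 an exception at no more than 4.47 in any class, Col4a3 and Col4a4 in alveolar type 1 cells, Col4a1 and Col4a2 in pericytes and Col23a1 in lymphatic endothelium.

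Among fibril-forming genes, Col1a1 and Col1a2, which encode the chains of type I collagen, were highest in adventitial fibroblasts. Col1a2 had 3099, 2980 and 2529 CPM there in libraries with the p16-DTR label and 2264, 3036 and 2509 in controls. Col1a1 had 1413, 1622 and 1298 against 1031, 1463 and 1293. Col3a1, the single chain of type III, had 2302, 2793 and 2255 against 1754, 2159 and 2520. In all 3 genes the groups overlapped, and the lowest adventitial library lay above the highest library of the next class. That class was the alveolar fibroblast for type I (mean of 403 for Col1a1, highest library 475) and smooth muscle for Col3a1. Col5a2, a minor chain of mixed fibrils, was also present in arterial endothelium, at 225 with libraries from 139.7 to 349, above other endothelial classes. Col27a1 peaked in pericytes at 127.

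Type IV chains divided by class. Col4a1 and Col4a2, the chains of the common network, were highest in pericytes, the mural cells of capillaries. Col4a1 had 2093, 2574 and 2744 in pericytes with the p16-DTR label and 1750, 1896 and 1782 in controls, and the groups did not overlap. Col4a2 had 1593, 1745 and 2042 against 1351, 1430 and 1500, again without overlap. Alveolar type 1 cells were the next class for both, at 869 and 1095. Col4a3 and Col4a4, which with Col4a5 build the alveolar network, were highest in alveolar type 1 cells, at 2696 and 2335, with 113 and 108 in the next of the 22 classes. Mesothelial cells, with only 4 to 9 gated cells a library, had means of 409 and 898. Col4a3 had 2491, 2622 and 2655 against 2838, 2804 and 2764 in controls, and Col4a4 had 2117, 2105 and 2287 against 2583, 2577 and 2340. Both were lower in every library labelled p16-DTR than in any control, by small margins. Neither passed the test of the groups described further on. The share of all genes without overlap was not counted in pericytes or alveolar type 1 cells. Col4a5 was highest in alveolar type 1 cells at 831 and next in smooth muscle at 435. Col4a6, which joins Col4a5 in smooth-muscle basement membranes, was highest in smooth muscle at 477.

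Col6a1 and Col6a2, 2 chains of type VI, were highest in adventitial fibroblasts, at 368 and 306, but their libraries overlapped those of alveolar fibroblasts, with means of 306 and 212. Col6a1 had 369, 414 and 332 against 339, 387 and 366 in controls. Col6a2 had 306, 374 and 247 against 286, 328 and 294, and both pairs of groups overlapped. Col6a3, the third chain, was highest in alveolar fibroblasts, with 377, 492 and 360 against 412, 352 and 417, and overlapped peribronchial fibroblasts. Among fibril-associated genes, Col14a1 was highest in adventitial fibroblasts, with 1171, 979 and 901 against 1069, 1549 and 1374. In interstitial macrophages the share of cells with a Col14a1 UMI, after thinning each cell to 5000 UMIs, was 59.2% and 66.5% in the 2 groups, against 0.196% and 0.716% in B cells. Col12a1 reached 184 in alveolar type 1 cells and 151 in aerocytes, capillary endothelium specialised for gas exchange, with overlapping libraries, against 2.71 in general capillary cells. Col19a1 was at 130 in smooth muscle and at most 22.7 in a library of the next class, natural killer cells.

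The members of the smaller families were highest in several different classes. Col8a1, a short-chain network gene of vessel walls, was highest in pericytes, with 338, 539 and 527 against 592, 716 and 520 in controls, and overlapped between groups. Col8a2 was at 120 in ciliated cells and 8.74 in alveolar fibroblasts, the next class. Col7a1, the anchoring-fibril gene known from skin, was at 55.0 in pericytes, with 28.2, 61.2 and 59.2 against 78.4, 61.5 and 41.6, and at 3.70 in the next of the 22 classes; 5 to 9 secretory cells a library averaged 11.4. Among transmembrane collagens, Col13a1 was highest in alveolar fibroblasts at 454, with 22.6 in peribronchial fibroblasts, the next class. Col23a1 was highest in lymphatic endothelium at 680, with 290 in alveolar fibroblasts, the next class. Col23a1 had 553, 830 and 646 against 639, 761 and 649.8. The multiplexins, whose C-terminal fragments include endostatin in the case of Col18a1, were apart: Col15a1 was highest in adventitial fibroblasts and Col18a1 in smooth muscle. Col15a1 had 276, 390 and 160 against 266, 313 and 313, and Col18a1 had 397, 503 and 261 against 381, 416 and 435. Col26a1, in neither a fibril nor a network family, had 40.6, 27.7 and 53.1 against 50.6, 49.2 and 38.5 in ciliated cells. These are small classes: a library with the p16-DTR label held 16 to 32 gated smooth muscle cells and 27 to 37 pericytes, and a control 32 to 55 and 85 to 93. The part of these cell numbers in the levels was not tested.

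The comparison of the groups within classes asked whether collagen expression of the remaining cells differed after treatment aimed at p16-expressing cells. In the 11 classes with at least 50 gated cells in every library, 173 combinations of a collagen gene and a class passed the filter on low counts. No class tested all 44 genes. The edgeR quasi-likelihood test called 6 of them at an adjusted p under 0.05 (Benjamini-Hochberg over all genes of the class). Against control, 4 were higher and 2 lower. The higher ones were Col4a1, Col4a2 and Col18a1 in aerocytes and Col4a1 in general capillary cells. The lower ones were Col4a6 in alveolar fibroblasts and Col14a1 in venous endothelium. Aerocytes had 3 of 12 tested collagen genes called, against 1.03% of all 12037 genes tested there. General capillary cells had 1 of 24 against 1.69%, alveolar fibroblasts 1 of 36 against 0.821%, and venous endothelium 1 of 13 against 1.69%. Fewer cells of a subtype within a gate and less RNA per cell cannot be told apart in such sums.

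**Figure D3:**
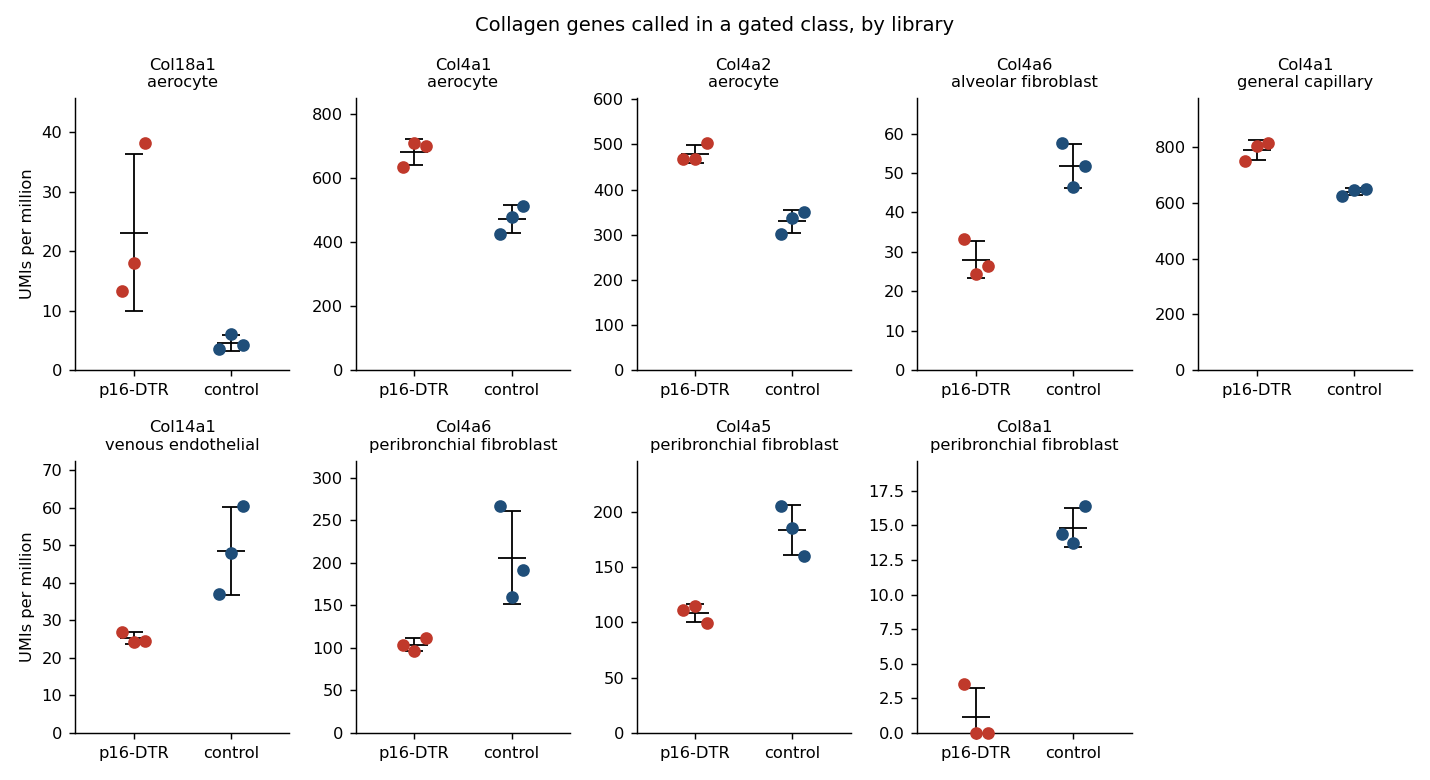
Level (CPM) of each collagen gene called in a gated class, 1 point per library, with the mean and SD as bars (n = 3 libraries a group); 6 panels are from the classes with at least 50 cells in every library and 3 from peribronchial fibroblasts. In each panel the groups do not overlap, but the panels were picked by a test of the same libraries. Col18a1 in aerocytes ranges from 13.3 to 38.1 in the libraries labelled p16-DTR and from 3.48 to 6.12 in controls.

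In aerocytes both common type IV chains rose together. Col4a1 (chromosome 8, 11198423 to 11312826, minus strand) had 635, 709 and 701 CPM in libraries with the p16-DTR label and 426, 480 and 513 in controls. Every library labelled p16-DTR lay above every control. The log2 fold change was 0.57 (standard error 0.08, edgeR adjusted p 0.0137). Col4a2 (chromosome 8, 11312805 to 11449287, plus strand) had 468, 467 and 502 against 301, 337 and 350. Its log2 fold change was 0.58 (standard error 0.07, edgeR adjusted p 0.0122), and it stayed called whichever of the 6 libraries was left out. Col4a1 stayed called in 4 of these 6 refits, and its adjusted p peaked at 0.0536 without p16-DTR replicate 3. The ratio of Col4a1 to Col4a2 UMIs stayed between 1.36 and 1.52 in all 6 libraries, and the groups overlapped in it. After thinning to 5000 UMIs, 92.2% ± 1.71 of aerocytes held a Col4a1 UMI against 84.9% ± 2.18 in controls (SD, n = 3 each), and 2.53% and 1.51% of B cells. Without thinning the aerocyte shares were 95.9% and 93.8%. The summed level of the 6 pericyte markers in the aerocyte gate was 2.59 to 3.58 CPM in libraries with the p16-DTR label and 4.68 to 4.86 in controls.

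Col18a1 (chromosome 10, 77052178 to 77166548, minus strand) showed the largest change of the 6. It had 13.3, 18.0 and 38.1 CPM in aerocytes with the p16-DTR label and 3.48, 6.12 and 4.26 in controls. The groups did not overlap, and replicate 3 stood highest. The log2 fold change was 2.31 (standard error 0.37, edgeR adjusted p 0.0213). The call was kept in 4 of 6 refits that each left out 1 library, and its adjusted p peaked at 0.0731 without control replicate 1. After thinning, 6.69% ± 2.08 of aerocytes held a Col18a1 UMI against 1.64% ± 0.202 (SD, n = 3 each); without thinning the shares were 13.1% and 4.74%. Among B cells, 0 of 2088 thinned cells held one in libraries with the p16-DTR label, which allows a share of up to 0.144% (counting error only, over the pooled cells of 3 libraries), and 4 of 2335 did in controls. Without thinning the B cell shares were 0.859% and 0.625%. For depth, 112 of 1277 and 122 of 1642 aerocytes were too shallow to thin. Median depths per library were 20534 to 22284 UMIs in aerocytes and 12252 to 14304.5 in B cells. The classes with the highest Col18a1 were smooth muscle (399) and lymphatic endothelium (98.7). In the aerocyte gate the 6 smooth muscle markers summed to 21.8 to 36.9 against 28.4 to 38.9 in controls, and the 4 lymphatic markers to 21.5 to 30.5 against 30.7 to 34.3. None of these markers was at 0 in all libraries.

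In general capillary cells Col4a1 had 748, 804 and 813 CPM against 625, 646 and 648 in controls. The groups did not overlap, and the log2 fold change was 0.33 (standard error 0.06, edgeR adjusted p 0.0462). This call was kept in 0 of 6 refits that each left out 1 library, and its adjusted p peaked at 0.143 without p16-DTR replicate 3. Col4a2 had 505, 534 and 582 against 412, 455 and 419, with a log2 fold change of 0.37 and an adjusted p of 0.0543, so edgeR did not call it. DESeq2 did, as it did 5.24% of all genes there, and it also called Col4a4, which was lower (−1.22, edgeR adjusted p 0.0756). Col18a1, the gene with the largest difference in aerocytes, had 4.06, 4.48 and 7.74 against 3.48, 4.57 and 3.65 in these cells (log2 fold change 0.51, edgeR adjusted p 0.318), and the groups overlapped.

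Whether a change in aerocytes exceeded that in general capillary cells of the same libraries was tested as an interaction, with the library as a block. Of all 14108 genes, 0.269% were called, and 1 collagen gene was among them. The Col18a1 difference between the log2 fold changes was 1.80 (standard error 0.21, edgeR adjusted p 0.0131), and it stayed called whichever of the 6 libraries was left out. Gating settings ended this call: with edgeR its adjusted p reached 0.243 over the alternatives, with differences of 1.19 to 1.96. DESeq2, which called 0.404% of all genes, gave a difference of 1.81 at an unadjusted p of 8.03e-08 but no adjusted p for Col18a1, and it called 0 collagen genes. For Col4a1 the difference was 0.23 (adjusted p 0.272) and for Col4a2 0.21 (adjusted p 0.349), so a difference between the capillary classes was not detected for the type IV chains.

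The sign of the difference varied among the 6 type IV chains. Col4a1 had a positive log2 fold change in 10 of the 11 classes (−0.52 in nonclassical monocytes to 1.02 in natural killer cells) and Col4a2 in 9 of the 10 in which it was tested. The exception for both was the nonclassical monocyte. In the classes added at a lower cell minimum, described further on, Col4a1 was positive in 6 of 7, but Col4a2 in only 4 of 8. Col4a5 had a negative one in 6 of 6 classes, Col4a4 in 5 of 5, Col4a3 in 3 of 3 and Col4a6 in its only one. Among the added classes Col4a5 was negative in 4 of 4, Col4a3 in 3 of 3, Col4a6 in 3 of 3 and Col4a4 in 2 of 3. The signs in the 11 classes did not change with relative log expression scaling or with library size alone. The median over all genes lay between −0.01 and 0.01 in every class. Only the 4 type IV results named above among these classes passed the test. Classes of a library can share free RNA, which was not tested, so the signs were not taken as independent of each other. Alveolar type 1 cells, the main source of Col4a3 and Col4a4, numbered 22 to 30 gated cells in libraries with the p16-DTR label and 33 to 57 in controls. Over whole libraries Col4a4 had 13.3, 12.3 and 11.9 CPM against 21.6, 26.2 and 24.0 (log2 fold change −0.89, edgeR adjusted p 0.0846). In general capillary cells Col4a3 and Col4a4 were at only 0.14 to 2.51 CPM in any library, and the part of free RNA in their signs was not tested. A gene this low can pass the filter on low counts through its higher group alone. The counts of negative signs above are therefore no independent support. In smooth muscle cells, too few for a test, Col4a6 was the other way: 562, 677 and 470 against 394, 444 and 313.

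**Figure D4:**
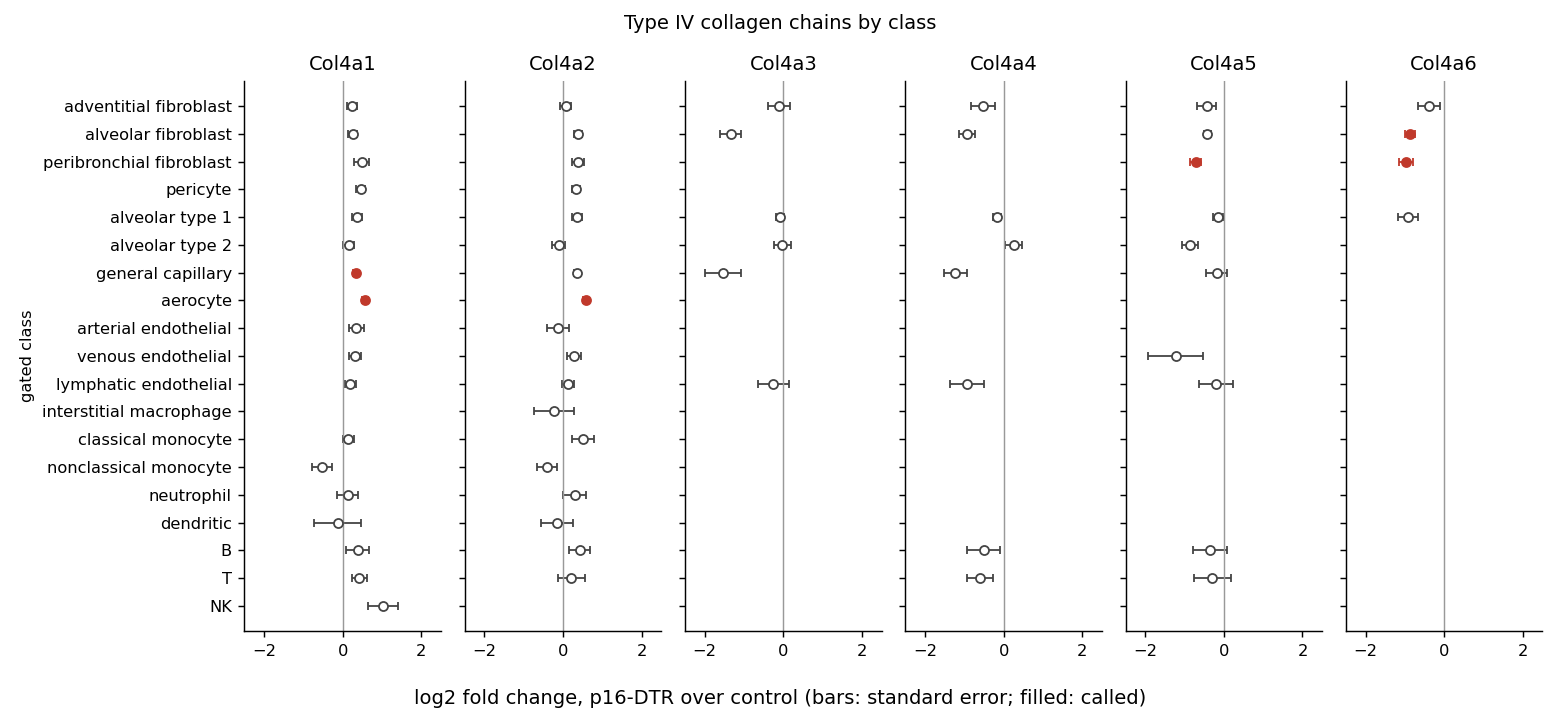
Log2 fold change of the 6 type IV collagen genes, libraries labelled p16-DTR over control, in each gated class where the gene was tested (points, with standard errors as bars; filled points passed the edgeR test at an adjusted p under 0.05). Col4a1 and Col4a2 lie mostly right of 0, with aerocytes at 0.57 and 0.58; Col4a5 and Col4a6 lie left of 0.

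The genes for these chains sit in head-to-head pairs. In GENCODE M21 the start sites of Col4a1 and Col4a2 lie 21 bases apart on opposite strands of chromosome 8. Those of Col4a3 and Col4a4 lie 72 bases apart on chromosome 1, and those of Col4a5 and Col4a6 lie 1309 bases apart on chromosome X. Upstream sequence is shown for Col4a5 and Col4a6, both called lower in peribronchial fibroblasts, and for Col18a1, with the largest rise of the 6 calls. It was taken from the RefSeq promoter table of GRCm38.p6, which held 35 of the 44 genes, and only bases before the start that no annotated exon covers were kept. For Col18a1, 2 starts were listed. The stretch shown lies before the start at 77166530, and before that at 77113705 only 9 bases were kept. Which start aerocytes used was not tested. Capitals mark a CCAAT box, spelled CCAAT, a GC box, whose letters are GGGCGG, or a TATA box, searched as TATAAA, on either strand.
Col4a6 (chrX:141474077-141474326, minus strand): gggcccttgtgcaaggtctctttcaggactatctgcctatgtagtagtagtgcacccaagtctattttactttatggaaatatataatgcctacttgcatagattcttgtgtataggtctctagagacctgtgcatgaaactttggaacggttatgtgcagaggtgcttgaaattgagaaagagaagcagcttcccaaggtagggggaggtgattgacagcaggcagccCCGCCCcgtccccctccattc
Col4a5 (chrX:141475169-141475384, plus strand): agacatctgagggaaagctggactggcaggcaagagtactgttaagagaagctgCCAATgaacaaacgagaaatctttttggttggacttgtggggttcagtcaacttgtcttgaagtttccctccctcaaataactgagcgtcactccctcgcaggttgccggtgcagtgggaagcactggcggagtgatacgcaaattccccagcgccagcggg
Col18a1 (chr10:77166549-77166780, minus strand): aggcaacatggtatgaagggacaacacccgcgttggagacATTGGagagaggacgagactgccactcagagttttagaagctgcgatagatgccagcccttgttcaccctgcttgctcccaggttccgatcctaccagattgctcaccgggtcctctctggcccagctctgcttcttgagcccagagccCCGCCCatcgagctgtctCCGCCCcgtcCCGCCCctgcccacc
The Col4a6 stretch holds 1 GGGCGG match, that of Col4a5 holds 1 CCAAT match, and that of Col18a1 holds 1 CCAAT and 3 GGGCGG matches. These letters are common: of 32851 windows of 250 bases before a start, 33.8% hold CCAAT, 32.7% GGGCGG and 12.4% TATAAA on either strand. Of the 38 windows of collagen genes, 13, 22 and 5 hold them.

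In alveolar fibroblasts, the largest mesenchymal class with 17790 cells, 36 of the 44 genes were tested. Col4a6 (chromosome X, 141165403 to 141474076, minus strand) was the only one called. It had 33.3, 24.5 and 26.4 CPM in libraries with the p16-DTR label and 57.5, 46.3 and 51.7 in controls, without overlap. The log2 fold change was −0.86 (standard error 0.13, edgeR adjusted p 0.0452), and the call was kept in 2 of 6 refits that each left out 1 library, and its adjusted p peaked at 0.152 without p16-DTR replicate 3. After thinning, 8.47% ± 0.91 of alveolar fibroblasts held a Col4a6 UMI against 14.0% ± 2.11 (SD, n = 3 each), with 0.148% and 0.209% among B cells. Markers of smooth muscle, the class with the most Col4a6, summed to 72.8 to 104.7 in this gate against 75.4 to 99.7 in controls, and those of peribronchial fibroblasts to 23.6 to 33.1 against 22.5 to 28.5.

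The other 35 collagen genes tested in alveolar fibroblasts did not pass the edgeR test. The groups did not overlap in 12 of the 36 genes, 4 higher and 8 lower; that is near the 27.1% of all genes tested in this class. Col1a1 had 406, 474 and 475 against 365, 334 and 362 (log2 fold change 0.37, edgeR adjusted p 0.0605). Col3a1 had 586, 718 and 767 against 515, 430 and 553 (0.49, adjusted p 0.0793). Both lay higher in every library labelled p16-DTR, as did Col4a2 (0.39, adjusted p 0.0921) and Col7a1 (0.72, adjusted p 0.127). Col4a5 had 173, 142 and 158 against 231, 207 and 209 (−0.43, adjusted p 0.0607). Col13a1, the transmembrane collagen highest in these cells, had 401, 442 and 355 against 565, 507 and 451 (−0.33, adjusted p 0.144). Col4a3, Col4a4, Col6a5, Col6a6 and Col17a1 were also lower without overlap, all at under 17 CPM. By family, 6 of 9 tested fibril-forming genes and 6 of 6 fibril-associated genes had a positive sign, and 4 of 6 type IV and 4 of 4 transmembrane genes a negative one. With library size alone the sign of Col12a1 (0.02) among them turned. DESeq2 called 12 of the collagen genes in this class against 1 by edgeR, and 8.27% of all genes. Of the 36 genes, 16 had an unadjusted p under 0.05, or 44.4%, against 22.1% of all genes.

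**Figure D5:**
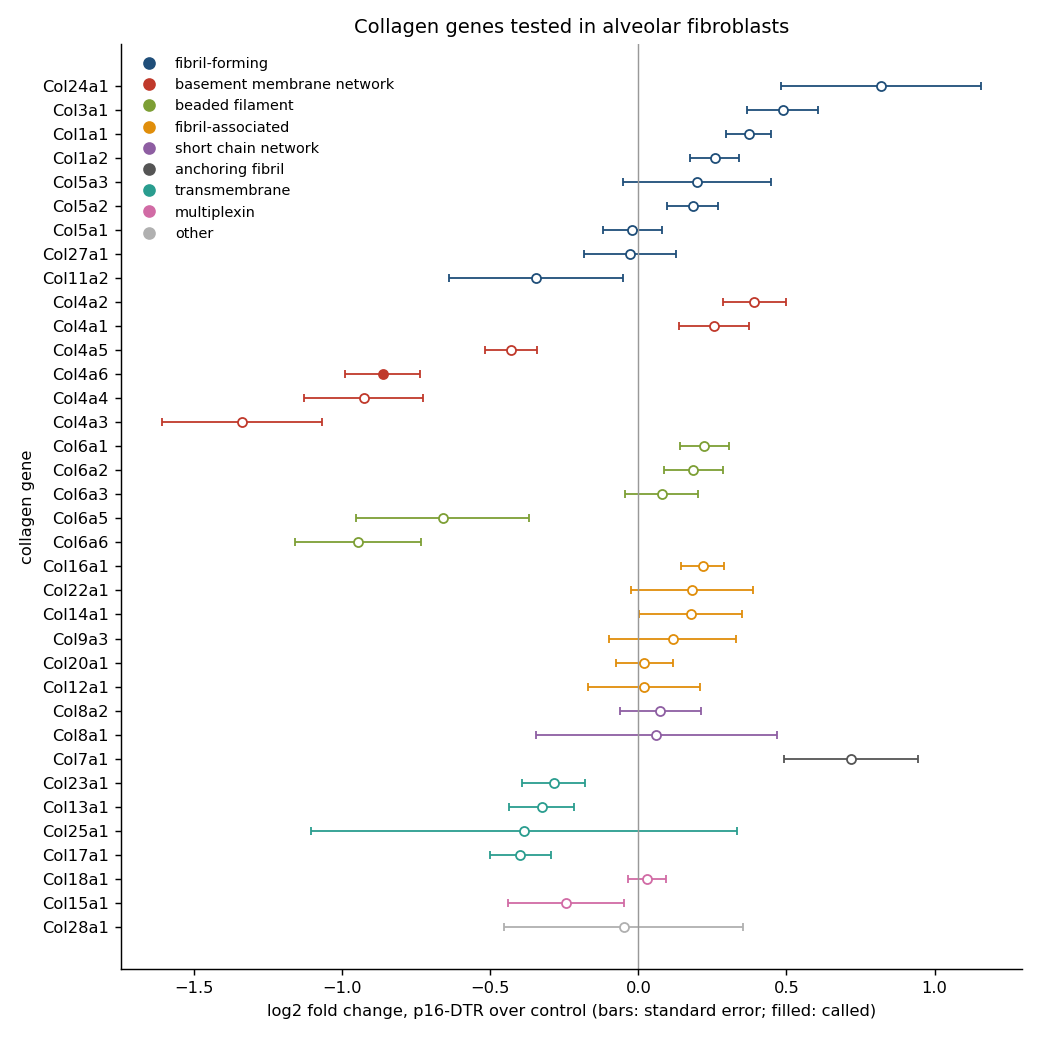
Log2 fold change (libraries labelled p16-DTR over control) of the 36 collagen genes tested in alveolar fibroblasts, coloured by family, with standard errors as bars. Only Col4a6, the filled point at −0.86, passed the edgeR test; the 4 transmembrane genes all lie left of 0 and the 6 fibril-associated genes right of it.

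In venous endothelium Col14a1 (chromosome 15, 55307750 to 55520803), a fibril-associated collagen that binds to type I fibrils, fell. It had 27.0, 24.2 and 24.5 CPM against 37.1, 47.9 and 60.5 in controls, without overlap. The log2 fold change was −0.93 (standard error 0.17, edgeR adjusted p 0.0310), and the call was kept in 1 of 6 refits that each left out 1 library, and its adjusted p peaked at 0.0970 without p16-DTR replicate 3. After thinning, 8.72% ± 3.23 of cells held a UMI against 13.6% ± 4.50 (SD, n = 3 each), and these shares overlapped: 12.4%, 6.73% and 6.98% against 9.84%, 12.4% and 18.6%. In B cells the thinned share was 0.196% against 0.716%. Markers of adventitial fibroblasts, the class with the most Col14a1, summed to 3.26 to 3.46 in the venous gate against 6.63 to 10.4 in controls, over 6 markers of which none was at 0 in all libraries. Markers of interstitial macrophages, which also express Col14a1, summed to 1.09 to 4.09 against 0.45 to 1.45. The part of either in the lower Col14a1 was not tested. Col14a1 was also lower in every interstitial macrophage library labelled p16-DTR, at 266, 316 and 374 against 472, 546 and 399.8 (log2 fold change −0.58, edgeR adjusted p 0.398), which did not pass the test.

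In the other 7 of the 11 classes edgeR called 0 collagen genes. Of 88 tests there, 8 had an unadjusted p under 0.05, against 11.2% of all genes tested in these classes, and DESeq2 called 0, against 1.14%. DESeq2 gave no adjusted p for 33 of the 88, among them all 9 in nonclassical monocytes, so those could not be called. The shares of all genes called were 0.00801% in B cells, 0.191% in T cells, 0.807% in natural killer cells and 0.425% in lymphatic endothelium, and 0% in classical monocytes, nonclassical monocytes and neutrophils.

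A lower minimum of 20 gated cells in every library, chosen after the data were seen, added 8 classes. Peribronchial fibroblasts, the fibroblasts next to the airway smooth muscle with 42 to 122 cells a library, had 3 of 23 tested collagen genes called, all lower, against 0.994% of all genes. Col4a6 had 104, 95.7 and 111 CPM against 267, 160.1 and 191 (log2 fold change −0.97, standard error 0.18, edgeR adjusted p 0.0317). Col4a5 had 111, 115 and 99.8 against 205, 186 and 159.9 (−0.72, standard error 0.14, adjusted p 0.0366). Col8a1 had 3.55, 0 and 0 against 14.4, 13.7 and 16.4 (−3.19, standard error 0.63, adjusted p 0.0366), a change at very low counts whose size 1 library sets: it was −7.20 without p16-DTR replicate 1, and −2.19 at a gate ratio of 1.5 (adjusted p 0.0647). Col8a1 passed the filter on low counts only through the controls, where it was higher, so its call is no independent support. In all 3 genes the groups did not overlap, which adds no support because the test of the same libraries picked them. The share of all genes without overlap was not counted in this class. The calls held in 3, 1 and 1 of the 6 fits without 1 library, with the highest adjusted p of 0.120 without p16-DTR replicate 2, 0.162 without control replicate 1 and 0.145 without control replicate 1. Markers shared by mesenchymal cells were lower in this gate, at 2222 to 2724 against 2969.9 to 3189.8 for the sum of 8, while smooth muscle markers summed to 541 to 561 against 469 to 597. Their part in these results was not tested.

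The other 7 added classes had 0 edgeR calls among 75 tests of collagen genes, of which 15 had an unadjusted p under 0.05, against 7.82% of all genes tested there, and DESeq2 made 2 calls. The shares of all genes called were 0% in adventitial fibroblasts, alveolar type 2 cells, arterial endothelium, dendritic cells and pericytes, 0.0115% in interstitial macrophages and 0.511% in alveolar type 1 cells. DESeq2 gave no adjusted p for 23 of the 75. Its 2 calls were Col4a1 and Col4a2 in pericytes, where 4 of the 17 tested collagen genes had an adjusted p and 0.472% of all genes were called, and where edgeR gave log2 fold changes of 0.46 (adjusted p 0.219) and 0.33 (adjusted p 0.408). At a gate ratio of 1.5, with 54 to 134 pericytes a library, edgeR called 2 of 20 collagen genes there, against 0.338% of all genes. These were Col6a2 (0.66, adjusted p 0.0412) and Col6a3 (3.14, adjusted p 0.0326), both higher. At the ratio of 2 the groups did not overlap in Col6a2. Col6a3 there had 4.33, 2.04 and 25.4 CPM against at most 4.04 in controls, from 12 and 9 UMIs. The groups overlapped, and p16-DTR replicate 3 set the difference. A gene this low in controls can pass the filter on low counts through the libraries labelled p16-DTR alone. The Col6a3 call at a ratio of 1.5 is therefore no independent support. Any part of alveolar fibroblasts, the class with the most Col6a3, in its call was not tested. In alveolar type 1 cells Col4a1 and Col4a2 had 0.35 and 0.36 without overlap (adjusted p 0.323 and 0.254), and Col4a6 had −0.91 (adjusted p 0.149). Type I and III genes of adventitial fibroblasts did not pass the test.

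Summed over whole libraries, 0 of 43 tested collagen genes were called by edgeR, as were 0% of all genes. At an unadjusted p under 0.05 there were 15, or 34.9%, against 23.3% of all genes. DESeq2 called 11, of which 2 were higher and 9 lower, against 12.8% of all genes. The 2 higher genes were Col4a1 and Col4a2. The collagen sum was 2315 ± 195 CPM against 2662 ± 573 in controls (SD, n = 3 each). Control replicate 1, with the most alveolar fibroblasts, had 3310 against 2221 and 2455 in the other controls, and in its ungated cells 3361 against 2190 and 2388. The part of the cell mixture in these sums was not tested. Without that library the count of edgeR calls was also 0.

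Genes that make, process, link and bind collagen were read from the same fits: 59 genes in 7 lists. The lists were chosen with earlier results of these data known, so counts over them are no independent support. In the 11 classes edgeR called 5 combinations out of 433, all higher, and 0 lower, against 0.638% of all genes tested in these classes. In alveolar fibroblasts 3 of 59 passed, against 0.821% of all genes. Serpinh1, the collagen-specific chaperone of the endoplasmic reticulum, had 391, 520 and 437 against 318, 294 and 279.7 CPM (log2 fold change 0.62, edgeR adjusted p 0.0486). P3h1, a prolyl 3-hydroxylase, had a log2 fold change of 0.41 (adjusted p 0.0470) and Itga1, a collagen-binding integrin chain, 0.66 (adjusted p 0.0469). In these cells 13 of 15 modifying enzymes, 6 of 6 chaperone and export genes and 5 of 5 crosslinking genes had a positive sign, with medians of 0.25, 0.21 and 0.23, against 51.7% of all genes and a median of 0.01. Signs were positive for 6 of 8 procollagen processing genes (median 0.15), 5 of 9 receptors (0.04) and 3 of 6 fibril partners (0.05). Plod2, a lysyl hydroxylase, was the 1 of 45 called in aerocytes (0.41, adjusted p 0.0451), where 1.03% of all genes were called. P4ha2, a prolyl 4-hydroxylase subunit, was the 1 of 54 in general capillary cells (0.60, adjusted p 0.0316), a share near the 1.69% of all genes. None of these 5 calls held in more than 1 of the 6 fits without 1 library. Laminins, nidogens and perlecan, the partners of type IV in the basement membrane, had 0 calls in these 3 classes. In aerocytes, alveolar fibroblasts and general capillary cells, 6 of 10, 6 of 10 and 4 of 9 had a positive sign. Their median log2 fold changes were 0.10, 0.03 and −0.32 in that order.

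In the added classes, Colgalt2, a collagen galactosyltransferase, was the 1 of 25 machinery genes called in alveolar type 1 cells (0.511% of all genes). It was lower there, with 9.41, 9.30 and 1.77 against 52.9, 41.6 and 35.6 (log2 fold change −2.56, edgeR adjusted p 0.0127). A library of this class held as few as 537743 UMIs, so the values labelled p16-DTR rest on few UMIs. Colgalt2 passed the filter on low counts only through the controls, where it was higher, so its call is no independent support. Peribronchial fibroblasts had 3 calls among 49 tested, against 0.994% of all genes: Lama4, a laminin chain of vessel and muscle basement membranes (−1.01, adjusted p 0.0193), P3h2 (−1.04, adjusted p 0.0326), a prolyl 3-hydroxylase known to act on type IV collagen, and Itga2, a collagen-binding integrin chain (1.68, adjusted p 0.0268). Itga2 passed the filter on low counts only through the libraries labelled p16-DTR, where it was higher, so its call is no independent support. Of these 4 calls, that of Colgalt2 held in 4 of the 6 fits without 1 library, Lama4 in 3, P3h2 in 2 and Itga2 in 1. With the lower minimum, 1 of 43 machinery genes and 0 of 14 collagen genes were called for a difference between venous and arterial endothelium, against 0.0273% of all genes. It was Fn1, fibronectin (−2.60, edgeR adjusted p 0.0497), and at a gate ratio of 1.5 that call was lost (−1.67, adjusted p 0.259).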

How the data were processed

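Single cells of 6 lung libraries were measured with a 10x GEM-X 3′ assay. The values deposited are UMI counts for each gene in each cell, unscaled and made with Cell Ranger 8.0.1 on the build mm10, per the submitters' processing notes. Values were not normalized by the authors. Cells with at least 300 genes, 500 UMIs and at most 15% mitochondrial UMIs were kept. Doublets were predicted with the scrublet method in scanpy 1.11.5 and left in, and an alternative left them out. Cells were gated by marker lists with a score at least 2 times the next. Counts were summed per library and class and tested with edgeR 4.0.16 in R 4.3.3: filterByExpr, TMM scaling and a quasi-likelihood test of group, with Benjamini-Hochberg adjustment over all genes of a class at 0.05. Standard errors given for edgeR were calculated back from the test, as the absolute log2 fold change over the square root of its F statistic. DESeq2 1.42.0 was an alternative. For shares of cells with a UMI, cells were thinned to 5000 UMIs.

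The members, lists and gates were chosen with earlier results of these data known. Per-library values are given for members called in any class, for 12 chains of types I, III, IV, VI, XV and XVIII in their highest class, and for the highest member of each family. All called machinery genes of the 11 classes are named. Depth was 254200305 to 344421685 UMIs a library, and shares cover counting error only within that depth. Other alternatives were relative log expression scaling, library size alone, no filter, a replicate block, a stricter cell filter, gate ratios of 1.5 and 3, adjustment over all classes, leaving out each library, and a minimum of 20 cells. The scripts' tests were tried on simulated counts with known changes. Promoter sequences came from RefSeq (GRCm38.p6) and gene positions from GENCODE M21.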

Additional observations from a re-analysis of the deposited data

Results flagged for a closer look

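The rise of Col18a1 in aerocytes differed from that in general capillary cells of the same libraries. The difference between the log2 fold changes was 1.80 (standard error 0.21, edgeR adjusted p 0.0131 for the interaction of class and group). Levels in aerocytes were 13.3, 18.0 and 38.1 CPM (UMIs per 1000000 of the class) against 3.48, 6.12 and 4.26 in controls, and in general capillary cells 4.06, 4.48 and 7.74 against 3.48, 4.57 and 3.65. p16-DTR replicate 3 was highest in both classes. The call was lost at a gate ratio of 1.5, with a difference of 1.19 (adjusted p 0.238), and at a ratio of 3, with a difference of 1.78 (adjusted p 0.243). DESeq2 gave a difference of 1.81 (unadjusted p 8.03e-08) and no adjusted p, so it made no call.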

How the results depend on the processing

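No direction turned under the alternatives run for each of the calls named in the report. DESeq2 gave no adjusted p for Col18a1 in the interaction or Col8a1 in peribronchial fibroblasts, with the same signs (1.81 and −3.33). Of the 6 calls of collagen genes, that of Col4a2 in aerocytes was kept in 16 of 16 alternatives, those of Col4a1 and Col18a1 in aerocytes in 13 each, Col4a6 in alveolar fibroblasts in 11, Col14a1 in venous endothelium in 8 and Col4a1 in general capillary cells in 6. All 6 were kept with relative log expression scaling, with library size alone, with the stricter cell filter and without predicted doublets.

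The 4 collagen calls that were higher became 10 with DESeq2, 9 with no filter on low counts, 1 at a gate ratio of 1.5, and 1 to 3 without 1 library. The 2 that were lower became 9 with DESeq2, 11 with no filter, 0 at a gate ratio of 3, 1 when adjusted over all classes, 5 with at least 20 cells, and 0 to 2 without 1 library. These counts cover the same 11 classes, with 2 exceptions. At a gate ratio of 3, here and for machinery genes, 10 classes were fitted, without lymphatic endothelium. With at least 20 cells there were 19. At a gate ratio of 1.5, 2 more higher calls (pericytes) and 2 more lower ones (peribronchial fibroblasts) lay in other classes. Among machinery genes, the 5 higher calls became 2 with library size alone, 34 with DESeq2, 34 with no filter, 8 without predicted doublets, 1 at a gate ratio of 3, 1 when adjusted over all classes, and 0 to 4 without 1 library. Their 0 lower calls became 1 with library size alone, 7 with DESeq2, 10 with no filter, 1 with the stricter cell filter, 3 at a gate ratio of 1.5, 1 at a gate ratio of 3, and 0 to 3 without 1 library. Over whole libraries DESeq2 gave 2 higher and 9 lower where edgeR gave 0. The 1 interaction call became 0 with DESeq2, 3 with no filter, and 0 at gate ratios of 1.5 and 3. The cause was not tested.

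Replicate numbers did not pair the libraries in every class. Over all cells the deviations of same-numbered libraries correlated at 0.44, −0.08 and 0.40. Libraries matched their own number best for all 3 numbers in neutrophils and natural killer cells. This held for 2 numbers over all cells and in B and T cells, and for at most 1 in the other classes. Pairing by number was therefore not excluded. With the replicate block there were 3 higher and 4 lower collagen calls, of which 4 were shared, and 4 higher and 1 lower machinery calls. Classes with few cells hold few UMIs, which limits their precision: alveolar type 1 cells numbered 22 to 57 a library, smooth muscle cells 16 to 55 and mesothelial cells 4 to 9.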

Other observations

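Some collagen genes had most of their level in a few libraries. Col19a1 had 18 UMIs in aerocytes, all in p16-DTR replicate 3 (2.80 CPM), and 0 in the other 5 libraries, and it was called only with no filter on low counts. Col6a5, a type VI chain, had 0, 1.01 and 13.4 CPM in adventitial fibroblasts with the p16-DTR label and 144, 2.14 and 108 in controls. Col17a1, a transmembrane collagen of epithelial attachment, had 15.4 in dendritic cells of p16-DTR replicate 1 and at most 0.803 in the other 5 libraries.

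Col26a1 in lymphatic endothelium had 22.1, 16.3 and 14.3 against 30.2, 34.2 and 43.7, without overlap (log2 fold change −1.05, edgeR adjusted p 0.0642). It was called without p16-DTR replicate 1 and with no filter on low counts.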
